A study of Homo sapiens with 6 samples.

Results

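Phototransduction and visual cycle genes were followed in A549 cells that carry a recoverin cDNA. These are 41 genes, chosen by gene symbol from the 58676 genes listed in the deposited table. The cells are A549, an established line from a human lung adenocarcinoma. A549 Rec was transduced with a retroviral pMXs-puro vector that holds a myc-tagged human recoverin cDNA and was selected with puromycin. A549 MOCK, the control, carries the empty vector. The labels describe both as plasmid transfection, and neither source used here states whether each line was a pool of cells or 1 clone. RNA was sequenced from 3 libraries of each group, and both groups were grown in 2D, which the labels put at 6 days in high-glucose medium with biotin, pantothenate, antibiotics, serum and methylcellulose. The question was which photoreceptor genes have any signal in these lung cells, and whether recoverin expression brings up any of its partners.

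In a rod or cone, light acts on a photopigment, the activated pigment switches on the G protein transducin, and transducin frees the phosphodiesterase PDE6 to break down cGMP. Cyclic nucleotide-gated channels then close, calcium falls, and the calcium sensors recoverin and the guanylate cyclase activating proteins let the response end and cGMP return. Recoverin binds and holds back rhodopsin kinase when calcium is high. The visual cycle, shared between photoreceptors and the retinal pigment epithelium, turns all-trans retinal back into the 11-cis form that the pigment needs.

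Of the 41 genes, 32 had reads in at least 1 of the 6 libraries and 9 were listed at 0 in all of them. The values are TPM, which set the reads of a gene against its length and give each library the same sum, and the reads behind them were recovered. The filter for testing asked for 3 or more libraries with TPM at or above 1, and 13 genes passed it. RCVRN, which encodes recoverin, reached it through A549 Rec alone. The other 12 were OPN1SW, GNAT2, GNGT1, PDE6D, PDE6G, RGS9, RGS9BP, SLC24A1, UNC119, NRL, RDH10 and RDH11. They make up 30.0% of the 40 members other than RCVRN, whereas 61.1% of the 19922 listed protein-coding genes passed the same filter. The share at 0 in all libraries was 22.0% of the members and 18.0% of the protein-coding genes. Between these classes lay 19 genes with some reads but no place above the filter, and their highest TPM in any library was 1.28, of RDH5 in replicate 1 of A549 Rec.

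**Figure D1:**
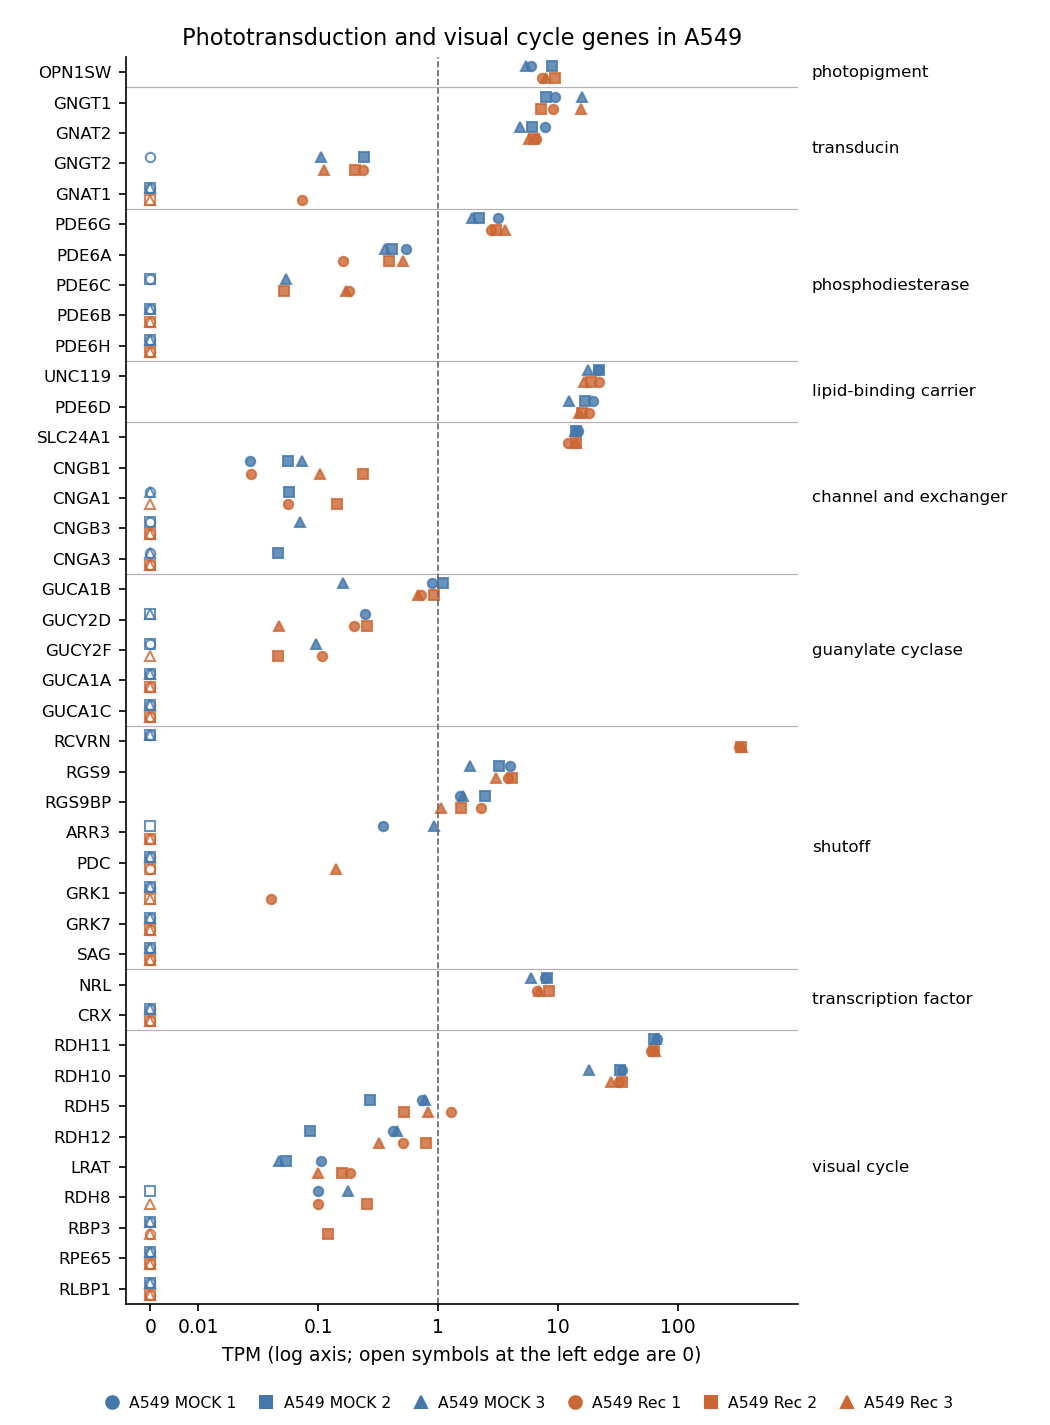
TPM in each library (log axis) for the 41 genes, ordered by role, with 1 symbol per library, open symbols for values of 0 at the left edge and a dashed line at a TPM of 1. RCVRN stands at 322 to 339 in A549 Rec and at 0 in A549 MOCK, RDH11 and RDH10 lead the other members, and 9 genes have no value above 0.

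The classes followed the roles unevenly. Both lipid-binding carriers and the photopigment passed the filter, as did 2 of 4 transducin subunits, 3 of 8 shutoff genes, RCVRN included, and 2 of 9 visual cycle genes. Of the 5 channel and exchanger genes 1 passed, of the 5 phosphodiesterase genes 1, of the 2 transcription factors 1, and of the 5 guanylate cyclase genes none. The 12 genes lay on both sides of the median TPM of the tested genes, 12.77. RDH11 lay at the percentile 86.7 of mean TPM over the tested genes, RDH10 at 71.8, UNC119 at 61.2, PDE6D at 56.0 and SLC24A1 at 51.9. GNGT1, OPN1SW, NRL and GNAT2 lay between 33.3 and 45.9, and RGS9 (21.5), PDE6G (18.3) and RGS9BP (10.3) were among the lower tested genes. RCVRN in the mean of both groups lay at 95.8.

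Promoter sequence was read for 33 of the 41 genes from RefSeq windows of 300 bases on GRCh38.p14, which run from 250 bases before the annotated start to 50 after it. RCVRN, RDH10, PDE6G, GUCA1B, RDH12, GNGT2, RBP3 and CNGB3 had no window in the table. The median number of CG dinucleotides per window was 20.5 for the 10 matched members above the filter, 4.5 for 14 members with some reads and 2 for 9 members at 0, against 14 over all 35114 windows. A window with 10 or more was held by 8 of 10, 4 of 14 and 0 of 9 of these classes, and by 56.4% of all windows. The 4 in the middle class were LRAT with 32, CNGA1 with 26, CNGA3 with 20 and GRK1 with 10. The letters TAATCC on either strand, the core that the photoreceptor transcription factor CRX is known to bind, were found in 10 of the 33 windows and in 6.36% of all windows. They were in 2 of 10 members above the filter, 4 of 14 with some reads and 4 of 9 at 0. For 7 members the window lay over 1000 bases from the deposited start, GNGT1, PDE6D and RGS9 above the filter, LRAT with some reads, and GRK7, GUCA1A and CRX at 0, so that the window may belong to another start site.

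The 4 windows printed here are a pair rich in CG and a pair poor in it, with CG in capitals in the first pair and TAATCC or its reverse complement GGATTA in capitals in the second. UNC119 (chr17:28552579-28552878, minus strand, 24 CG) and SLC24A1 (chr15:65611100-65611399, plus strand, 33 CG) are expressed in A549. OPN1SW (chr7:128775745-128776044, minus strand, 2 CG, 2 copies of the core) passed the filter with a window poor in CG. SAG (chr2:233307566-233307865, plus strand, 4 CG, 1 copy of the core) was listed at 0 in all 6 libraries. A match of these letters is a description of the window and no measured binding.
UNC119: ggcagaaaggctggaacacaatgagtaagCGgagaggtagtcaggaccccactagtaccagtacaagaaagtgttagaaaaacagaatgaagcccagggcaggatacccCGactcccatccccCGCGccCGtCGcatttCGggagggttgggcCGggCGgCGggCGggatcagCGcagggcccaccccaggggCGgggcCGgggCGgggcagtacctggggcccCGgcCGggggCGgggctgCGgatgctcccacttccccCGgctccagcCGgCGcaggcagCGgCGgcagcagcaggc
SLC24A1: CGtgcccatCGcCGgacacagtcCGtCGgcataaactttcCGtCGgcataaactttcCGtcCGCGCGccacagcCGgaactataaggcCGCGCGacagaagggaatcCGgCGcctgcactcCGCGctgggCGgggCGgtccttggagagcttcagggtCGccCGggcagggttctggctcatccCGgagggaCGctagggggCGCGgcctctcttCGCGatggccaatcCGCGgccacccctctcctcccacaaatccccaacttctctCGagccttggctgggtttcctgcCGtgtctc
OPN1SW: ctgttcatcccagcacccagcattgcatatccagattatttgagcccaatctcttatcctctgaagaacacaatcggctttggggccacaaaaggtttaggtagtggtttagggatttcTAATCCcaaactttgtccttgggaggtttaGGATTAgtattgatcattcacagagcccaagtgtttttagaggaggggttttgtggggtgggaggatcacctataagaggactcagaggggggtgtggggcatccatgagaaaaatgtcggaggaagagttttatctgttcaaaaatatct
SAG: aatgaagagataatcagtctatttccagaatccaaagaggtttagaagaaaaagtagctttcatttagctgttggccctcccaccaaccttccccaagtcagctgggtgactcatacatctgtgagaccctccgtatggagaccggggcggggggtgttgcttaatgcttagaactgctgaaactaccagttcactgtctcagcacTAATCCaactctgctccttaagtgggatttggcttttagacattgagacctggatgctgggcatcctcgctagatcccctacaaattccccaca

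**Figure D2:**
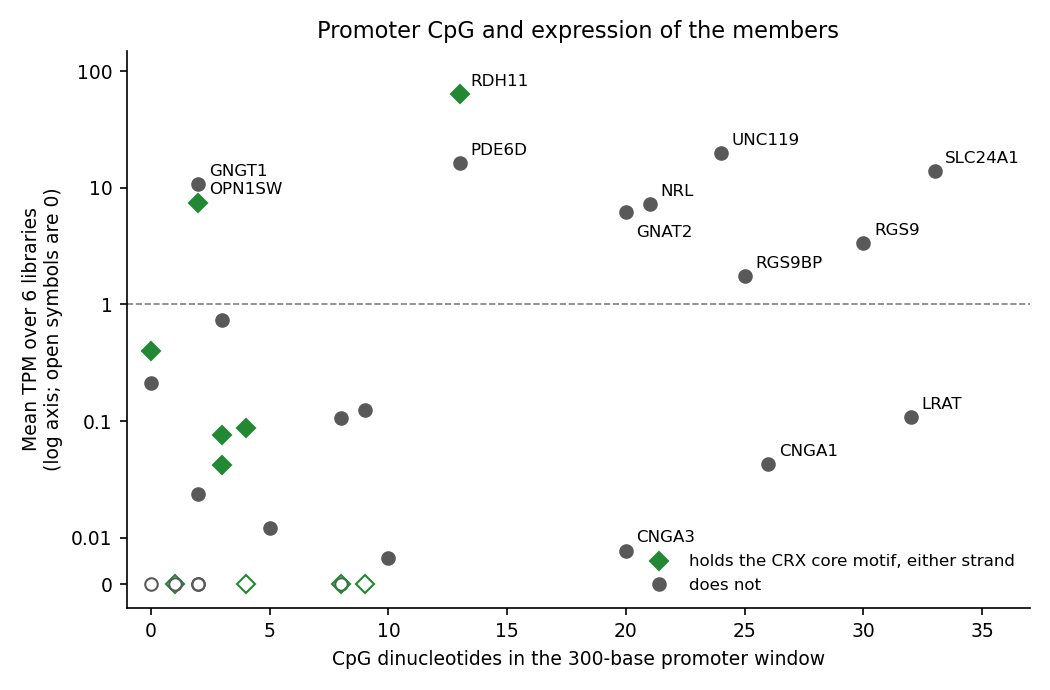
Mean TPM over the 6 libraries (log axis, open symbols at 0) against the number of CG dinucleotides in the 300-base window of the 33 matched genes, with diamonds for windows that hold TAATCC on either strand. Of the genes above the dashed line at a TPM of 1, 8 have 10 or more CG, and OPN1SW and GNGT1 have 2.

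RCVRN (ENSG00000109047, chr17:9896320-9905621, minus strand) was listed at 0 in all 3 A549 MOCK libraries and had TPM values of 322, 338 and 339 in the A549 Rec libraries. These stand for 4700, 5769 and 5220 reads. The mean in A549 Rec was 333 ± 9.49 (SD, n = 3), and the lowest A549 Rec value was at least 1545-fold higher than the level of 3 reads in any A549 MOCK library. Its call in limma (adjusted p = 5.82e-08) checks the labels and is no finding, since the cDNA was introduced and the gene passed the filter through A549 Rec alone. The fitted log2 difference is set by the pseudocount, at 8.38 with 1 and 11.70 with 0.1, and measures no fold. RCVRN was the only DEG among all 17408 tested genes, an upward share of 0.00574%, where the call asks for adjusted p below 0.05 with a 2-fold change or more. No gene was called lower (0%). The paper, by its own test on read counts, reports further genes in both directions at a 2-fold change and an FDR below 0.05. That test was not run here, so the count of 1 belongs to the limma fit on TPM. Reads of the cDNA and of the gene itself cannot be told apart in these values, and the TPM divides by the length of the whole gene model while the cDNA was amplified from start to stop codon. In A549 Rec the TPM of RCVRN was 5.375 times that of RDH11, the highest of the other members.

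The targets and companions of recoverin in the shutoff of the light response had few or no reads. This list holds retinal partners only. The paper also names other G protein-coupled receptor kinases and caveolin-1, co-precipitated with recoverin from another cell line in earlier work, and these are no members. GRK1, the rhodopsin kinase that recoverin inhibits, had 1 read, in replicate 1 of A549 Rec, and 3 reads of it would stand for a TPM of 0.104 to 0.123. GRK7, the cone opsin kinase, and SAG, the rod arrestin, were listed at 0 in both groups. ARR3, the cone arrestin, had 3, 0 and 9 reads in A549 MOCK, with TPM values of 0.344, 0 and 0.927, and was listed at 0 in the 3 A549 Rec libraries. As 1 A549 MOCK library was also at 0, the groups touch. PDC, phosducin, which binds the transducin beta-gamma dimer, had 1 read in all, in replicate 3 of A549 Rec.

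The RGS9 complex, which speeds the return of transducin to its inactive state, did pass the filter. RGS9, its GTPase-activating subunit, had TPM values of 3.98, 3.22 and 1.86 in A549 MOCK against 3.81, 4.16 and 3.04 in A549 Rec. The groups overlapped, and the lowest value was replicate 3 in each. The log2 difference was 0.25 (SE 0.23), with a 95% interval of the fold from 0.811 to 1.74. RGS9BP, the anchor of RGS9 in the photoreceptor membrane, had 1.51, 2.45 and 1.601 in A549 MOCK against 2.28, 1.54 and 1.05 in A549 Rec, which overlapped (log2 difference -0.13, SE 0.25, fold 0.608 to 1.37, where fold ranges are 95% intervals on the TPM + 1 scale). These rest on 16 to 35 reads per library. GNB5, the beta subunit that RGS9 needs, was no member and was named after its values were seen. Its means were 9.01 ± 1.15 without and 9.61 ± 0.307 with the recoverin cDNA (SD, n = 3). The exons of RGS9BP share 750 bases, 30.6% of their length in GENCODE v44, with ANKRD27 on the opposite strand, whose TPM was 21.9 to 26.3, and the strand setting of the counting is not given in the sources used here.

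OPN1SW, the blue cone opsin, is the photopigment of the list. It had TPM values of 5.98, 8.89 and 5.36 in A549 MOCK, from 33, 48 and 33 reads, and 7.31, 9.37 and 7.97 in A549 Rec, from 40, 60 and 46 reads. Each A549 Rec library was above the A549 MOCK library with its number, while the groups overlapped. The means were 6.74 ± 1.88 and 8.21 ± 1.05 (SD, n = 3) and the log2 difference was 0.27 (SE 0.19, fold 0.886 to 1.64). It was not called in limma (adjusted p = 0.9997), and the unadjusted p was 0.194 and, in the fit blocked on replicate number, 0.0708. CALU lies on the opposite strand, 683 bases from OPN1SW in the deposited coordinates, and overlaps it by 916 bases in GENCODE v44, 175 of them exon with exon (15.8% of the exon length of OPN1SW). CALU stood at a TPM of 195 to 309, 29.1 to 51.6 times that of OPN1SW. Its part in the OPN1SW reads was not tested.

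Of transducin, the cone alpha subunit and the rod gamma subunit had signal. GNAT2, the cone alpha subunit, had 7.76, 6.03 and 4.77 in A549 MOCK against 6.52, 6.32 and 5.77 in A549 Rec. The A549 Rec values lay within the range of A549 MOCK, at means of 6.21 ± 0.389 against 6.19 ± 1.50 (SD, n = 3, fold 0.770 to 1.34). On the opposite strand of GNAT2 lies AMPD2, with 155 bases of exon in common (9.0%) and a TPM of 19.7 to 28.6. GNAI3, also on the opposite strand, overlaps GNAT2 by 15055 bases in the deposited coordinates and by 0 in GENCODE v44. Its TPM was 7.305 to 9.936, 1.28 to 1.598 times that of GNAT2. GNAT2, AMPD2 and GNAI3 were each lowest in replicate 3 of both groups. Mitochondrially encoded genes took 34.5% of the TPM in replicate 3 of A549 MOCK and 26.9% in replicate 3 of A549 Rec. In the other libraries they took 13.3% to 17.3%. A larger share leaves less TPM for all other genes, so a shared low value is not particular to genes that overlap. The part of AMPD2 or GNAI3 in the GNAT2 reads was not tested. GNAT1, the rod alpha subunit, had 1 read, in replicate 1 of A549 Rec, by a recovered length of 2754 bases where GENCODE v44 has 3936. GNGT2, the cone gamma subunit, had 3 reads over A549 MOCK and 5 over A549 Rec.

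GNGT1, the rod gamma subunit, had 9.50, 7.91 and 15.70 in A549 MOCK against 9.07, 7.25 and 15.51 in A549 Rec. Replicate 3 was the highest in both groups, and each A549 Rec library was below its A549 MOCK partner by number. The means were 11.0 ± 4.11 and 10.6 ± 4.34 (SD, n = 3, fold 0.571 to 1.61). The SE of the log2 difference was 0.32, and 0.09 in the fit blocked on replicate number. The deposited GNGT1 model, chr7:93591573-93911265, spans the whole of TFPI2 on the opposite strand, a gene of 5596 bases that encodes a secreted protease inhibitor. In GENCODE v44 their exons share 44 bases, 1.9% of those of GNGT1. TFPI2 stood at 121, 116 and 176 in A549 MOCK against 106, 97.4 and 186 in A549 Rec. It was 11.2 to 14.7 times GNGT1 in each library and also highest in replicate 3 of both groups. Whether GNGT1 counts reads of TFPI2 was not tested.

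**Figure D3:**
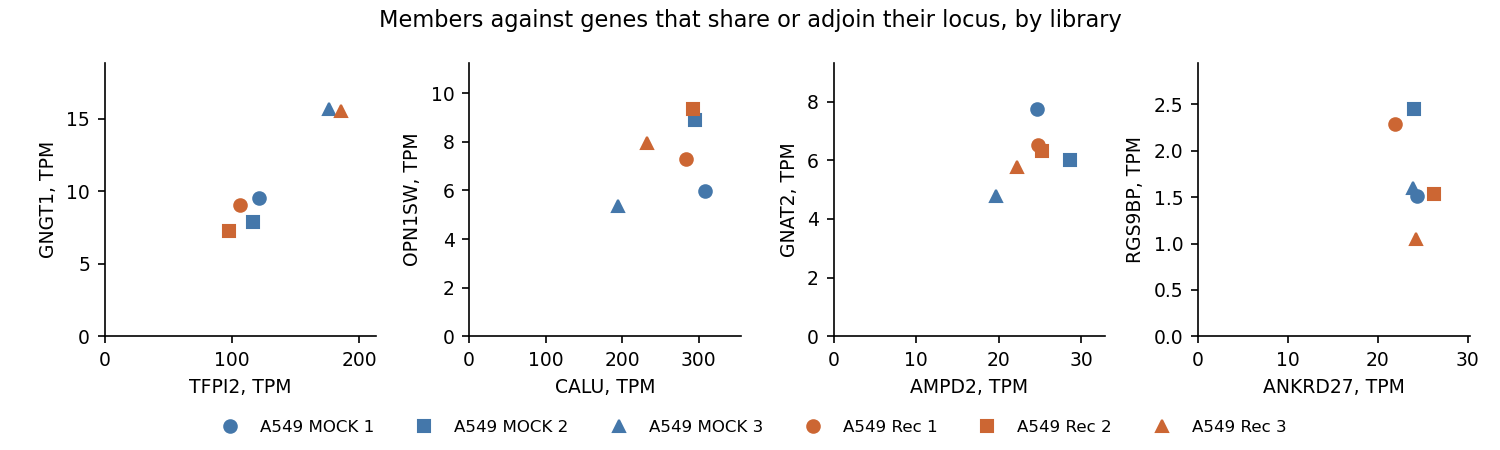
TPM of GNGT1, OPN1SW, GNAT2 and RGS9BP against that of a gene on the opposite strand that overlaps it, with 1 symbol per library and both axes from 0. The second gene of OPN1SW is CALU, which overlaps it in GENCODE v44 and adjoins it in the deposited coordinates. GNGT1 and TFPI2 are both highest in the replicate 3 libraries, while RGS9BP spans 1.05 to 2.45 at an ANKRD27 level between 21.9 and 26.3.

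PDE6, the effector enzyme, is built of catalytic and small inhibitory subunits, and its catalytic subunits were all under the filter. PDE6A, a rod catalytic subunit, had 20, 15 and 15 reads in A549 MOCK against 6, 17 and 20 in A549 Rec, with TPM values of 0.360 to 0.535 and 0.162 to 0.512. PDE6B, its rod partner, was listed at 0, and PDE6C, the cone catalytic subunit, had 1 read in A549 MOCK against 3, 1 and 3 in A549 Rec. PDE6H, the cone inhibitory subunit, was listed at 0. PDE6G, the rod inhibitory subunit, had TPM values of 3.14, 2.18 and 1.91 in A549 MOCK against 2.78, 3.03 and 3.60 in A549 Rec. The groups overlapped through 1 A549 MOCK library, on 17 to 30 reads each. Its log2 difference was 0.29 (SE 0.19, fold 0.897 to 1.67), with an unadjusted p of 0.169 in limma (adjusted p = 0.9997).

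PDE6D and UNC119 carry lipid-modified proteins between membranes, PDE6D those with prenyl groups, such as PDE6 and GRK1, and UNC119 those with acyl groups, such as transducin alpha. Both are known from many tissues outside the eye. PDE6D had 19.71, 16.66 and 12.38 in A549 MOCK against 18.13, 15.79 and 15.05 in A549 Rec (means 16.3 ± 3.68 and 16.3 ± 1.61, SD, n = 3). UNC119 had 21.45, 22.12 and 17.89 in A549 MOCK against 21.98, 18.99 and 16.32 in A549 Rec. Its means were 20.5 ± 2.27 and 19.1 ± 2.83, a fold of 0.739 to 1.18. The groups of both genes overlapped, with replicate 3 the lowest in each. COPS7B, on the opposite strand of PDE6D, shares 72 bases of exon with it in GENCODE v44 (2.5%) at a TPM of 12.9 to 13.7. In the deposited coordinates UNC119 lies within AC005726.1, on its own strand, which stood at 1.47 to 3.22.

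Of the channel and exchanger genes, which move the light-sensitive current and calcium, the exchanger alone passed the filter. SLC24A1, the rod sodium, calcium and potassium exchanger, had 14.73, 14.23 and 13.91 in A549 MOCK against 12.19, 14.11 and 14.02 in A549 Rec. These values, from 553 to 749 reads, varied least among the 12 genes in A549 MOCK relative to their mean (14.3 ± 0.415, SD, n = 3), and A549 Rec overlapped them at 13.4 ± 1.08. On the opposite strand of SLC24A1, DENND4A shares 363 bases of exon in GENCODE v44 (4.0%) at a TPM of 9.90 to 13.98. AC011939.3, on the same strand as DENND4A, shares 466 (5.1%) at 2.61 to 7.71. CNGB1, the rod channel beta subunit, had 1, 2 and 3 reads in A549 MOCK against 1, 10 and 4 in A549 Rec, with the highest TPM, 0.234, in replicate 2. CNGA1, the rod alpha subunit, had 1 read in A549 MOCK against 4 in A549 Rec. CNGA3 and CNGB3, the cone channel subunits, had 1 read each, both in A549 MOCK. The read of CNGB3 rests on a recovered length of 2512 bases where GENCODE v44 has 5896, so that it may stand for more.

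The guanylate cyclases and their calcium-sensing activators, which restore cGMP, were all under the filter. GUCY2D had 5, 0 and 0 reads in A549 MOCK against 4, 6 and 1 in A549 Rec, a TPM of 0 to 0.246 against 0.047 to 0.254. GUCY2F had 2 reads in A549 MOCK against 3 in A549 Rec. GUCA1B, which encodes GCAP2, had 5, 6 and 1 reads in A549 MOCK against 4, 6 and 4 in A549 Rec, with TPM values of 0.160 to 1.09 and 0.682 to 0.923. Its recovered length of 1113 bases is below the 2270 of GENCODE v44, so that these reads may be a fraction of the true ones. GUCA1A and GUCA1C, like recoverin members of the neuronal calcium sensor family, were listed at 0.

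CRX, the homeobox factor that switches on many photoreceptor genes, was listed at 0, and 3 reads of the 9 genes at 0 would stand for a TPM of 0.0432 to 0.838 by their GENCODE v44 lengths. NRL, a leucine zipper factor that sets rod identity, had 7.84, 8.08 and 5.90 in A549 MOCK against 6.69, 8.36 and 6.89 in A549 Rec. The groups overlapped at means of 7.27 ± 1.20 and 7.31 ± 0.910 (SD, n = 3, fold 0.785 to 1.29). PCK2, on the opposite strand, lies within the bounds of NRL with no exon in common and a TPM of 47.2 to 61.4, and DCAF11 shares 289 bases of exon (6.3%).

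In the visual cycle, 2 retinol dehydrogenases known from many tissues carried nearly all of the signal. RDH11 had 66.85, 62.97 and 66.07 in A549 MOCK against 59.11, 62.68 and 64.14 in A549 Rec, from 1629 to 2046 reads. Each A549 Rec library was below the A549 MOCK library with its number, the groups overlapped between 62.97 and 64.14, and the fold was 0.810 to 1.11. RDH10 had 34.10, 32.73 and 18.02 in A549 MOCK against 32.02, 34.32 and 27.39 in A549 Rec, with replicate 3 lowest in both groups. Its means were 28.3 ± 8.92 and 31.2 ± 3.53 (SD, n = 3, fold 0.766 to 1.69). RDH11 and RDH10 made up 50.27% of the summed mean TPM of the 40 members other than RCVRN in A549 MOCK. RPL7, on the opposite strand, overlaps RDH10 by 1178 bases in the deposited coordinates, with no exon in common in GENCODE v44. Its TPM was 433 to 581, 16.8 to 24.1 times that of RDH10, and also lowest in replicate 3 of both groups. The mitochondrial share of TPM, highest in replicate 3 of both groups, leaves less for all other genes there. The part of RPL7 in the RDH10 reads was not tested.

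The other enzymes and carriers of the cycle were low or at 0. RPE65, the isomerase that makes the 11-cis form, and RLBP1, the 11-cis retinal carrier, were listed at 0. LRAT, which esterifies retinol, had 4, 2 and 2 reads in A549 MOCK against 7, 7 and 4 in A549 Rec, a TPM of 0.0471 to 0.105 and 0.1004 to 0.185. Its groups met at 4 reads, and in TPM they overlapped. RDH5, the 11-cis retinol dehydrogenase, had 11, 4 and 13 reads in A549 MOCK against 19, 9 and 13 in A549 Rec, a TPM of 0.272 to 0.777 and 0.516 to 1.28. The RDH5 gene overlaps on its own strand with a readthrough transcript unit of BLOC1S1. How reads that fall on both were counted is not given in the sources used here, and its effect on RDH5 was not tested. RDH12, a photoreceptor retinal reductase, had 5, 1 and 6 reads in A549 MOCK against 6, 11 and 4 in A549 Rec. RDH8 had 3 and 4 reads over the groups, and RBP3, the retinoid carrier between the cells, had 1 read, in replicate 2 of A549 Rec, by a recovered length of 1425 bases where GENCODE v44 has 4290.

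Among the tested members RCVRN alone was called between A549 Rec and A549 MOCK. The groups of the 12 other tested members overlapped in each case, and all 12 had an adjusted p of 0.9997 in limma. Over all tested genes, the groups did not overlap for 5.16%, with A549 Rec above for 2.47% and below for 2.69%. An unadjusted p under 0.05 was reached by 0 of the 12 members and 2.06% of the tested genes, and in the fit blocked on replicate number by 0 of 12 and 4.11%. The log2 difference was above 0 for 7 of 12 and for 56.6% of the tested genes, and its median was 0.02, the same as over all tested genes. The 95% intervals of the fold ran from 0.571 to 1.74 over the 12 genes, so that none reached a fold of 2 in either direction. With a pseudocount of 0.1, which shrinks low genes less, they ran from 0.465 for RGS9BP to 2.05 for RGS9. The exact permutation test on TPM, two-sided, gave p values of 0.2 to 1.0 for the 12 genes, and 0.1 for RCVRN, the smallest that 3 libraries against 3 allow. The summed mean TPM of the 40 members was 186.14 in A549 MOCK against 186.51 in A549 Rec. Since nothing states that the libraries came from separate cultures, p-values measure the spread between these libraries only, which may be technical.

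**Figure D4:**
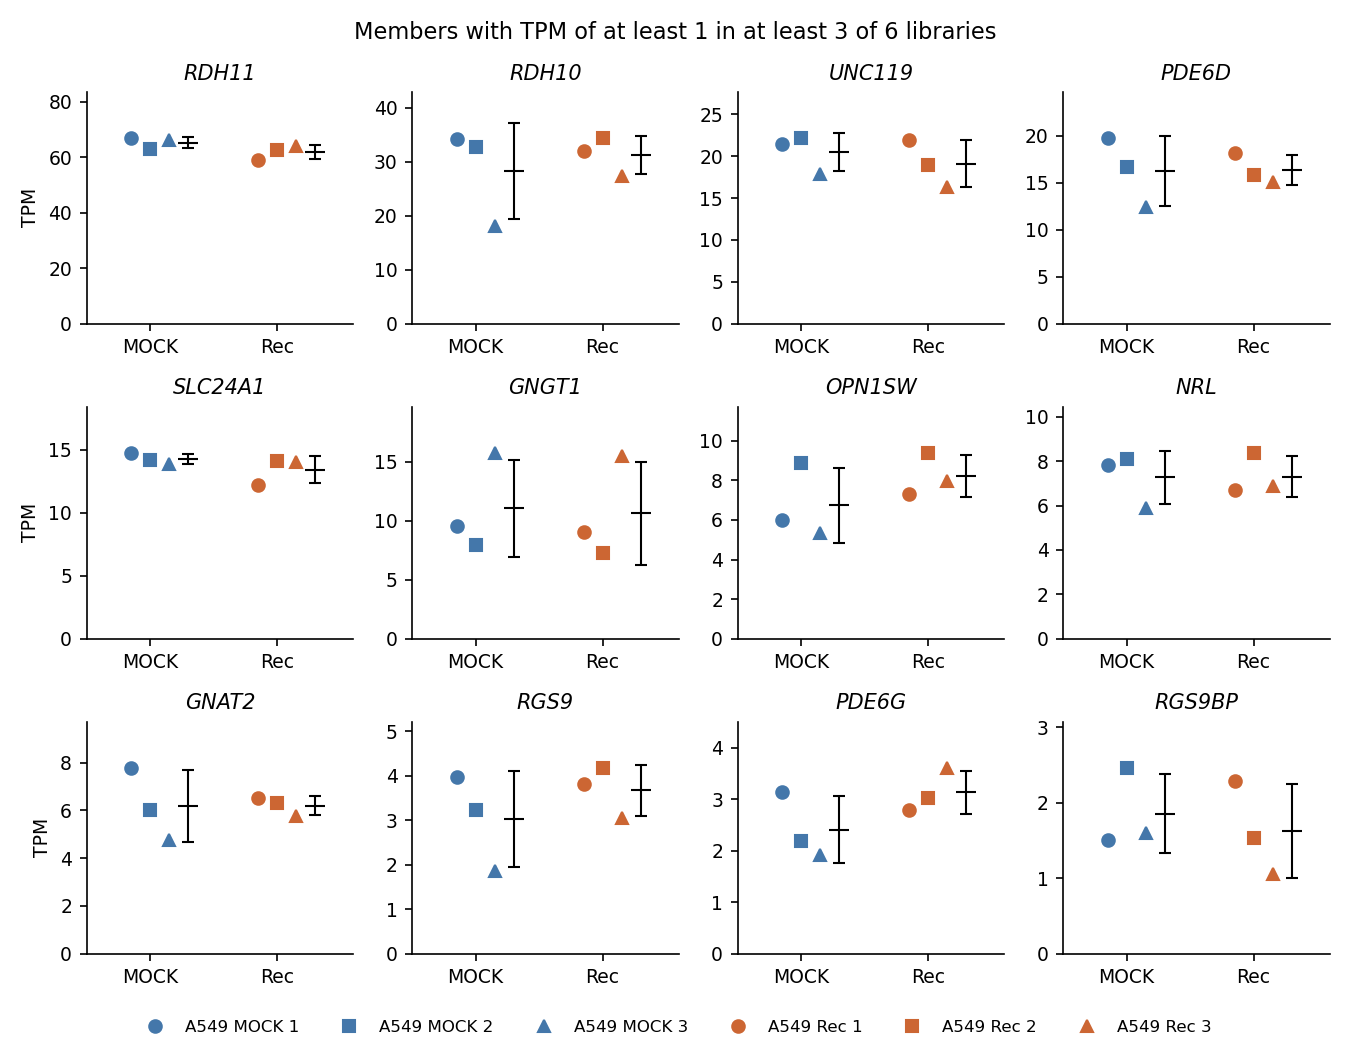
TPM in each of the 3 libraries per group for the 12 genes other than RCVRN above the filter, with the mean and SD of the group beside the symbols. In each panel the ranges of A549 MOCK and A549 Rec overlap.

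**Figure D5:**
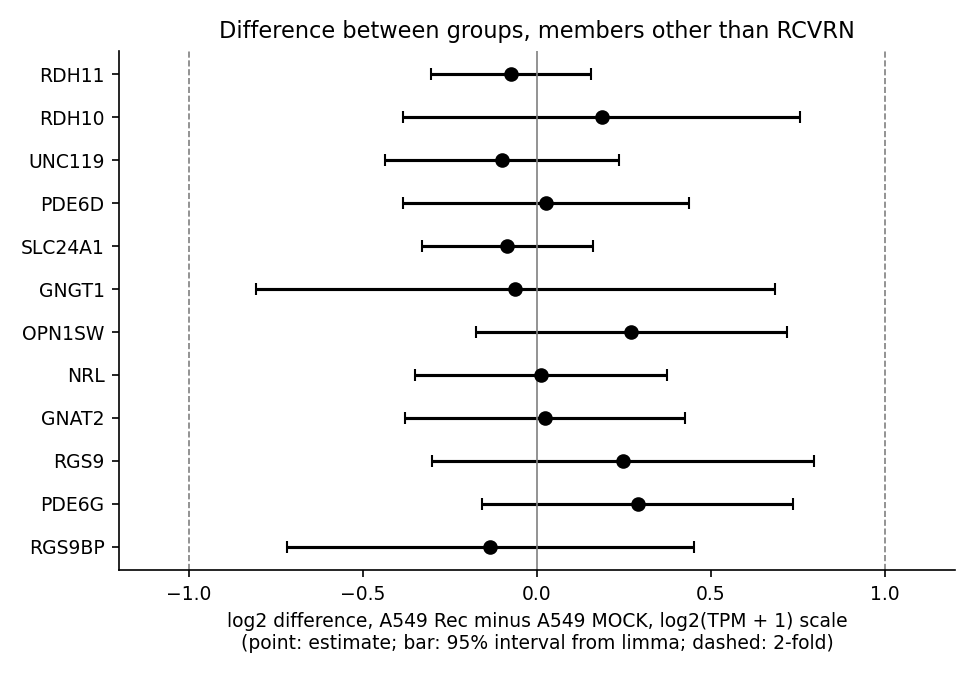
Log2 difference of A549 Rec against A549 MOCK on the log2(TPM + 1) scale for the 12 tested members other than RCVRN, with 95% intervals from limma. The values lie between -0.13 (RGS9BP) and 0.29 (PDE6G), each interval holds 0, and none reaches a fold of 2.

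The 28 members under the filter gave no gene whose groups parted either. Of the 19 with some reads, 0 had groups that did not overlap, against 5.05% of the 29900 genes above 0 in any library. A count of 0 among 19 is near that share, but it was partly fixed in advance. Groups can part only where all 3 libraries of 1 group have reads. The 9 genes at 0, the 6 with a single read and some others, such as ARR3, could not meet this. The 11 with 3 reads or fewer in each library had 1 to 8 reads over the 6 libraries, and for 6 of them that was a single read. Summed over the 28 genes, the reads were 55, 34 and 56 in the A549 MOCK libraries and 58, 77 and 55 in the A549 Rec libraries. Scaled to 10000000 recovered reads per library this was 34.3, 22.0 and 36.7 against 37.5, 41.5 and 36.3, so that the groups met between replicate 3 of each. Reads fell on 9, 9 and 12 of the genes in A549 MOCK and on 14, 13 and 10 in A549 Rec. Such sums rest on 34 to 77 reads, and what change in a single gene of this class could be detected was not tested.

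Genes of 4 related lists gave no DEG, and 0 of their tested genes had an unadjusted p under 0.05 in limma. Over all 17408 tested genes the shares were 0.00574%, RCVRN alone, and 2.06%. Counts of 0 in lists of this size are near those shares. Of 15 photoreceptor structure genes 2 passed the filter, ROM1, a disc rim tetraspanin (16.3 ± 2.26 and 15.8 ± 3.41 in A549 MOCK and A549 Rec), and GNB3, the cone transducin beta subunit (6.09 ± 1.65 and 4.87 ± 0.162). ABCA4, the retinoid transporter of the discs, stood at 0.286 and 0.226, and PRCD, a small disc protein, at 0.199 and 0.299. The median log2 difference of the 2 tested genes was -0.15, against 0.02 over all tested genes. Of 14 partners and relatives of transducin used outside the eye, 12 passed, led by the beta subunit GNB1 (127 ± 19.4 and 137 ± 7.91), ARL2, a GTPase that releases PDE6D cargo (71.3 ± 11.7 and 74.2 ± 5.56), the arrestin ARRB2 (41.4 ± 5.77 and 43.5 ± 5.02) and UNC119B (25.3 ± 3.91 and 28.0 ± 3.39). Of 22 retinoid metabolism genes 14 passed, led by ALDH1A1, which makes retinoic acid (7120 ± 1423 and 7869 ± 1009), the retinal reductase AKR1B10 (2035 ± 733 and 2478 ± 542), AKR1C3 (661 ± 184 and 741 ± 128) and DHRS3 (70.9 ± 8.20 and 73.6 ± 6.89). The median log2 differences of the tested genes of these lists were 0.06 and 0.12. All errors are SD with n = 3.

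Of 10 retinal transcription factors 2 passed the filter, MEF2D (41.7 ± 1.23 and 43.2 ± 1.57, SD, n = 3) and THRB, the thyroid hormone receptor (8.02 ± 0.126 and 8.77 ± 1.07). OTX2, RAX and RAX2 were listed at 0, and PAX6 stood at 0.604 and 0.591. The median log2 difference of the 2 was 0.08. NR2E3, a nuclear receptor that acts with NRL and CRX in rods, was under the filter but parted the groups. Its TPM was 0.184, 0.125 and 0.275 in A549 MOCK, from 3, 2 and 5 reads, and 0.555, 0.475 and 0.527 in A549 Rec, from 9 reads in each library. All A549 Rec libraries lay above all A549 MOCK libraries, as they did for 2.38% of the 29900 genes above 0 in any library. The 61 related genes include some at 0 in all libraries, which the 29900 leave out. Of the 61, 2 had groups that did not overlap, against 5.05% of the 29900 in either direction. The other, ALDH1A3, a retinal dehydrogenase, lay lower in all A549 Rec libraries (4.34, 3.56 and 4.87 against 5.95, 5.24 and 5.40). In limma without the filter, NR2E3 had a log2 difference of 0.35 on the log2(TPM + 1) scale, an unadjusted p of 0.0104 and an adjusted p of 0.9996, and was not called. In that fit 2.39% of the genes had an unadjusted p under 0.05 and 0.0201% were called. ALDH1A3 was not called either (log2 difference -0.32, SE 0.14, adjusted p = 0.9997 in limma). AC104938.1, a noncoding gene on the strand of NR2E3 that begins 136 bases past its end, had 7.76, 7.25 and 8.15 in A549 MOCK against 9.61, 7.26 and 11.0 in A549 Rec. Its part in the NR2E3 reads was not tested.

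The libraries held 15172450 to 18555518 recovered reads, and mitochondrially encoded genes took 13.3% to 34.5% of the TPM, most in replicate 3 of both groups. Of 5 epithelial markers 4 were above the filter, among them KRT8 (mean TPM 2353 in A549 MOCK against 2656 in A549 Rec) and KRT18 (2717 and 3164), with KRT19 at 0.11 and 0.16. Of 5 alveolar markers NAPSA alone passed (3.40 and 2.54), while NKX2-1 stood at 0.06 and 0.02. Among 5 leukocyte, 5 fibroblast and 3 endothelial markers CD14 (5.70 and 6.53) and COL1A1 (3.90 and 4.10) passed, and CD3E and COL1A2 were listed at 0. In bulk RNA, fewer cells that express a gene and less of its RNA per cell cannot be told apart.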

How the data were processed

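TPM from RNA sequencing of 3 A549 Rec and 3 A549 MOCK libraries in 2D culture were analysed, with groups and replicate numbers from the sample labels. The submitters' processing notes name FastQC 0.11.7, Trimmomatic 0.38, HISAT2 2.1.0 and featureCounts 1.6.3. The paper's methods give GRCh38, while the notes name mouse builds, and the gene identifiers and coordinates of the table are human. The authors deposited the values as TPM. The annotation release, the treatment of reads with several matches and the strand setting of the counting are not given in the sources used here. Unmatched columns of per-sample values numbered 0.

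Reads were recovered from the TPM, since a value equals reads, as a whole number, multiplied by a library step over gene length. The length was that of GENCODE v44 for 13901 genes and otherwise the smallest whole length that fits (15999 genes), so that a gene's reads can be scaled alike by a wrong length. Floors of 3 reads cover counting error only, and the intervals of the fold come from the spread between libraries in limma. The 17408 genes with 3 or more of 6 libraries at a TPM of 1 or above were tested by a limma 3.58.1 fit with a variance trend (R 4.3.3) of log2(TPM + 1), which understates the change of low genes. DEGs were called at 2-fold or more with p under 0.05 after Benjamini-Hochberg adjustment. The scripts were checked on simulated data. A limma fit with voom weights on the recovered reads was run as an alternative.

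Deviations from the group means correlated between the libraries of each number (r across genes 0.115, 0.164 and 0.342 for numbers 1, 2 and 3). Libraries of unlike number were not compared, so the values do not show that the numbers mark pairs. The libraries with number 3 also had the highest mitochondrial share of TPM in their groups. The numbers come from the descriptions in the labels, and a fit with the replicate block was made beside the one without. Genes above the filter or with more than 3 reads in a library are given with their values, the others by counts and range, and of related lists up to 4 genes by mean TPM. ALDH1A3 and GNB5 were named after their values were seen. The members and lists were chosen with earlier results of these data known. The longest transcript of each member was mapped to GRCh38 with minimap2 2.31, and 0 near-identical copies were found. The closing section gives the alternatives. GO annotation columns of the table were not used here.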

Additional observations from a re-analysis of the deposited data

How the results depend on the processing

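RCVRN was the single member called under every alternative run, with a log2 difference of 8.38 with the replicate block, 8.37 to 8.41 leaving out each library in turn, 11.70 with a pseudocount of 0.1 and 13.28 with voom weights on recovered reads. The block changed no other call of a member. The number of genes called, 1, was 6 (2 higher, 4 lower) with no filter on low TPM, 6 (2 higher, 4 lower) with limma without trend, 5 (all higher) with voom weights and the replicate block, 1 to 2 leaving out each library, and 2 without replicate 3 of both groups, an alternative chosen after seeing the data. The members above the filter, 13, were 15 when rescaled without mitochondrially encoded genes and 21 with TPM of at least 0.1 in at least 3 libraries.

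The sign of small log2 differences turned under some alternatives, with no call in either direction. Rescaled without mitochondrially encoded genes, GNAT2 was at -0.0132, PDE6D at -0.0163 and NRL at -0.0273, and the median of all tested genes moved alike, from 0.02 to -0.02. With voom weights NRL was at -0.000599, and with voom weights and the block GNAT2 was at -0.00415, PDE6D at -0.00301 and NRL at -0.00615. Without replicate 3 of both groups GNAT2 was at -0.0804, PDE6D at -0.0941, NRL at -0.0797 and RDH10 at -0.0109. Leaving out each library gave -0.12 to 0.18 for GNAT2, -0.35 to 0.20 for GNGT1, -0.115 to 0.0843 for NRL, -0.15 to 0.17 for PDE6D, -0.10 to 0.34 for RDH10, -0.309 to 0.031 for RGS9BP and -0.20 to 0.0018 for UNC119. OPN1SW, PDE6G, RGS9, SLC24A1 and RDH11 kept their sign under all alternatives, while single libraries moved their values. Leaving out each library gave 0.14 to 0.46 for OPN1SW (lowest without A549 MOCK replicate 3, highest without A549 MOCK replicate 2), 0.18 to 0.44 for PDE6G (without A549 MOCK replicate 3 and replicate 1), 0.02 to 0.42 for RGS9 (without A549 MOCK replicate 3 and replicate 1), -0.12 to -0.02 for SLC24A1 (without A549 Rec replicate 2 and replicate 1) and -0.10 to -0.04 for RDH11 (without A549 MOCK replicate 2 and A549 Rec replicate 1). Which of the 12 differences was largest changed with the library left out. The median of all tested genes was at -0.06 without A549 MOCK replicate 3. Apart from the rescaling, the cause was not tested. With 3 libraries a group and 0 to 20 reads per library for the members under the filter, depth limits what can be said of them.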
